A study of Mus musculus with 8 samples.

Results

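In mouse vagal ganglia, 10 receptor genes were examined. They were 7 of the Mas-related G protein-coupled receptor family (Mrgprd, Mrgpra3, Mrgprx1, Mrgprb4, Mrgprb5, Mrgpre and Mrgprf) and 3 receptors for lysophosphatidic acid (LPA), namely Lpar1, Lpar3 and Lpar5. They were taken by gene symbol from a table of 55335 genes, all 10 were in it, and all 10 were among the 17618 genes kept by a filter on low counts. The 10 were selected on their differences between HDM and saline in these same libraries, so those differences are given as a description. The ganglia came from wild-type (WT) mice that received HDM (an abbreviation in common use for house dust mite) or saline, and were taken 1.5 h after challenge number 4. Each group had 4 libraries, and each library was 1 pool of 6 to 8 ganglia from 3 to 4 mice. Batches 1 to 4 of the labels match the replicate numbers, and 1 HDM and 1 saline pool make up each batch.

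Vagal ganglia hold the cell bodies of sensory neurons of the airways and other organs, in a jugular part whose neurons resemble those of dorsal root ganglia and a nodose part of a different developmental origin. In dorsal root ganglia, Mrgpr genes mark nonpeptidergic C-fibre neurons, which are grouped into NP1 cells with Mrgprd, NP2 cells with Mrgpra3 and NP3 cells with Nppb and Sst, and the transcription factor Runx1 is needed for much of this programme. LPA is a lipid made outside cells by autotaxin, and its receptors act through several G proteins, among them Gq and G12/13. LPA and ligands of Mrgpr receptors evoke itch or pain through such neurons in mice. RNA of a whole ganglion was measured here, and fewer cells of a type and less RNA per cell cannot be told apart.

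Library totals, in mega-counts (M), lay between 23.95 and 26.67 M for HDM pools and between 26.87 and 31.28 M for saline pools. Levels are given as CPM, in which TMM factors put the libraries on 1 scale. Pan-neuronal markers (7 of 7 tested) summed to between 8305 and 8936 CPM in HDM and between 8040 and 8222 CPM in saline. The sum was thus higher in HDM without overlap. By gene, 4 of the 7 had a log2 fold change above 0 and 3 below, so the sum does not stand for each gene. None of the markers on the other lists was at 0 in all libraries, but 2 of the 6 mast cell markers, Cma1 and Mrgprb2, averaged under 10 counts a library.

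Upstream sequences of 4 of the genes are shown first: Mrgprb4 and Mrgprb5 because they are closely alike, Lpar5 because it holds the letters of the Runx motif, and Mrgprd as the most abundant receptor per length. All are the 250 bases before an annotated start in RefSeq on GRCm38.p6, written 5′ to 3′ on the strand of the gene. All 10 genes are annotated as protein-coding, and gene positions are those of GENCODE on GRCm38. Mrgprb4 lies at chr7:48198070-48199288 and Mrgprb5 at chr7:48167983-48169019, both on the minus strand and 29.05 kb apart. Their windows, chr7:48199179-48199428 for Mrgprb4 and chr7:48168986-48169235 for Mrgprb5, both overlap the GENCODE span of their gene. They were aligned without gaps, and capitals mark the 44 bases that differ.
Mrgprb4: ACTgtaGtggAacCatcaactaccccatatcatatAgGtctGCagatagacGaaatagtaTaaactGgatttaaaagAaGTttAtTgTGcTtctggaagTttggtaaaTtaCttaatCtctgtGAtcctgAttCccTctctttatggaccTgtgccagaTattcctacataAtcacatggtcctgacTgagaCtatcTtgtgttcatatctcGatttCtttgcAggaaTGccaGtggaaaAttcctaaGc
Mrgprb5: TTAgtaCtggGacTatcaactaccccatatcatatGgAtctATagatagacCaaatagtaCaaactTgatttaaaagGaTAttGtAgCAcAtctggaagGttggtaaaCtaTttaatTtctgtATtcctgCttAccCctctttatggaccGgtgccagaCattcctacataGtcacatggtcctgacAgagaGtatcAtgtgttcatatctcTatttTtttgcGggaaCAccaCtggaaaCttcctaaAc
The pair was identical at 206 of 250 bases, or 82.4%, and the other 27 pairs of upstream windows of these genes, compared with gaps, were identical over 43.6 to 53.2% of the window. The coding sequences of Mrgprb4 and Mrgprb5 were 84.6% identical, against 70.2% for Mrgpra3 and Mrgprx1 and 58.8 to 67.2% for the remaining pairs.

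The letters TGTGGT, a core of the motif that Runx proteins bind, were searched on both strands. They were in 14.0% of 32851 upstream windows of the same length in the table, and in 3 of the 11 windows of the 8 receptors it holds. Those 3 windows belonged to Lpar1 (1 window) and Lpar5 (2 windows), and capitals mark the letters in the Lpar5 windows at chr6:125067670-125067919 and chr6:125071085-125071334 (plus strand). The Mrgprd window, chr7:145314585-145314834 (plus strand), is shown for comparison and holds no capitals.
Lpar5, first start: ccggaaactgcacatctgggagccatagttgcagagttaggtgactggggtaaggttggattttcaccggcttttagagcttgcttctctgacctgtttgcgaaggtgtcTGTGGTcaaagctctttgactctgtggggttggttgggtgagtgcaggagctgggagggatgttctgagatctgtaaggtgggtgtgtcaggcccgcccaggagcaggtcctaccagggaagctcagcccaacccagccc
Lpar5, second start: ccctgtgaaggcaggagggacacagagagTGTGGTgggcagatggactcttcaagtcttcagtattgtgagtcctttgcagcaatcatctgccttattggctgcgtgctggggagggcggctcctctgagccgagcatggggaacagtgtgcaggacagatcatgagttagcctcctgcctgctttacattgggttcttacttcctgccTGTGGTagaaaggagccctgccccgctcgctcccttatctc
Mrgprd: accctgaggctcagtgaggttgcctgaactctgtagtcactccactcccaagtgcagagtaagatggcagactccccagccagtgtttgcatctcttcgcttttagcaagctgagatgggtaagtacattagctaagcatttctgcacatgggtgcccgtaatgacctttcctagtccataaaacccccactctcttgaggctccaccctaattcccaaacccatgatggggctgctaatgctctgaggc
TGANTCA, the letters of the AP-1 motif, were in 0 of the 11 windows, against 6.75% of all windows. Mrgpra3 and Mrgprf were not among the matched genes.

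Levels between the genes were compared per kilobase of exon, as the mean and SD over all 8 libraries. Mrgprd was highest, at 35.5 ± 5.99 CPM per kb, followed by Lpar1 at 29.3 ± 1.50 CPM per kb. Mrgprd lay above Lpar1 in 7 of 8 libraries, and their ranges overlapped. Lpar3 averaged 17.4 ± 1.49 CPM per kb, Mrgpre 11.1 ± 0.77 CPM per kb and Mrgprx1 6.61 ± 1.79 CPM per kb, and from Lpar1 down to Mrgprx1 the ranges of neighbours did not overlap. Mrgprb4, Mrgpra3, Mrgprb5, Lpar5 and Mrgprf followed at 4.03, 3.45, 3.42, 3.19 and 2.14 CPM per kb, and each of these overlapped in range with the next.

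**Figure D1:**
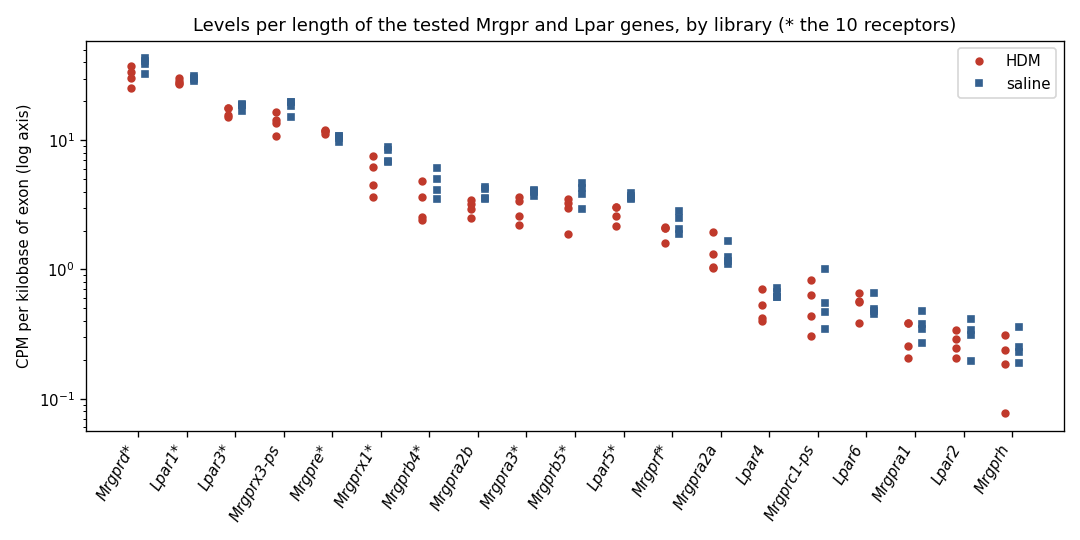
Level of each tested Mrgpr and Lpar gene in CPM per kilobase of exon (log axis), by library; red circles are the 4 HDM and blue squares the 4 saline libraries, and an asterisk marks the 10 receptors. Mrgprd and Lpar1 are highest, with means of 35.5 and 29.3 CPM per kb, and of the tested genes outside the 10, Mrgprx3-ps is highest at 16.1 CPM per kb.

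In the comparison of HDM with saline, 0 of the 10 receptors passed an adjusted p under 0.05 in edgeR's quasi-likelihood test, against 1.38% of the 17618 genes tested. An unadjusted p under 0.05 was reached by 8 of the 10 receptors, against 18.1% of all genes. Limma-voom called 0 receptors and 1.21% of genes, and DESeq2 called 1 receptor, Lpar5, and 6.94% of the 12152 genes to which it gave an adjusted p. The log2 fold change was below 0 for 9 of the 10 receptors, against 51.5% of all genes, and its median was −0.36, against −0.01 over all genes. HDM was lower in 4 of 4 batches for 6 receptors, which 12.8% of all genes also were. All 4 HDM libraries lay below all 4 saline libraries for 2 receptors (Mrgpra3 and Lpar5), against 4.39% of genes, and above them for 1, Mrgpre, against 6.25% of genes. These counts rest on the contrast for which the receptors were listed, and nothing is read from them. Replicates are pools that the labels name as separate samples, and the p-values measure the spread between such pools.

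**Figure D2:**
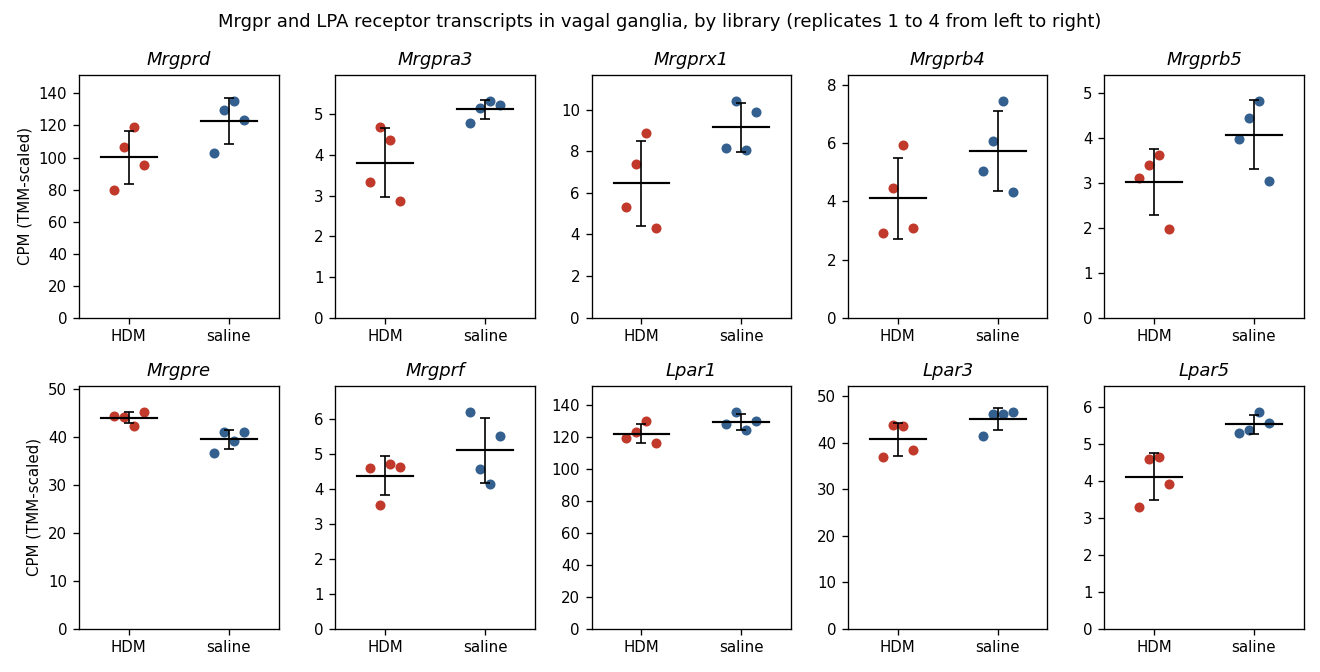
TMM-scaled CPM of each receptor in each library, with HDM on the left and saline on the right of each panel; points are replicates 1 to 4 from left to right, the line is the mean and the bar the SD (n = 4). Mrgpra3 and Lpar5 are lower and Mrgpre is higher in all 4 HDM libraries, and the groups overlap for the other 7.

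Mrgprd, at chr7:145314835-145324086 on GRCm38, is the receptor for beta-alanine and the marker of NP1 neurons. It had 79.8, 106, 119 and 95.4 CPM in HDM replicates 1 to 4, against 103, 130.0, 135 and 123 CPM in saline replicates 1 to 4. Each HDM library was below the saline library of its batch, although the groups overlapped, since HDM replicates 2 and 3 were above saline replicate 1. The log2 fold change was −0.29 (SE 0.11, adjusted p = 0.164 in edgeR's quasi-likelihood test). With the replicate number as a block, edgeR gave −0.30 with an adjusted p of 0.00904, and 4.05% of all genes passed, 1.03% as lower in HDM. With the block and a GC offset together edgeR's adjusted p was 0.0229, and 0.227% of genes passed, 0.0397% as lower. The log2 difference in batches 1 to 4 was −0.36, −0.29, −0.18 and −0.37.

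Mrgpra3, the mouse receptor for chloroquine and a marker of itch neurons, lies at chr7:47588950-47601372. It had 3.35, 4.68, 4.37 and 2.87 CPM in HDM, against 4.79, 5.16, 5.34 and 5.22 CPM in saline. The highest HDM library was below the lowest saline library, and the saline libraries lay close together. The log2 fold change was −0.43 (SE 0.15). Mrgprx1, which in the mouse answers to the peptide BAM8-22, lies at chr7:48020971-48027597. It had 5.31, 7.39, 8.86 and 4.30 CPM in HDM, against 8.17, 10.4, 8.07 and 9.90 CPM in saline. HDM replicate 3 exceeded 2 of the saline libraries, and the log2 fold change of −0.50 (SE 0.18) was −0.31 without batch 4, in which HDM was lowest.

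Mrgprb4 marks C-fibre neurons that answer to stroking of hairy skin in mice. It had 2.93, 4.45, 5.92 and 3.10 CPM in HDM, against 5.04, 6.09, 7.46 and 4.32 CPM in saline, with overlap. Mrgprb5, its near copy, had 3.10, 3.39, 3.62 and 1.96 CPM in HDM, against 3.98, 4.43, 4.82 and 3.05 CPM in saline. For both genes, replicate 3 was the highest library in each group and HDM was lower in 4 of 4 batches. Their log2 fold changes were −0.48 (SE 0.22) for Mrgprb4 and −0.43 (SE 0.19) for Mrgprb5. Mrgprb5's was −0.27 without HDM replicate 4. Of their 50-base stretches, 1.45% in Mrgprb4 and 0.81% in Mrgprb5 occur in another gene, as do 7.14% in Mrgpra3 and 5.84% in Mrgprx1.

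Mrgpre and Mrgprf have no widely agreed ligand. Mrgpre, at chr7:143778363-143784500, had 44.3, 44.0, 42.3 and 45.2 CPM in HDM, against 36.7, 40.9, 39.1 and 40.9 CPM in saline. It was the receptor with the other direction, with each HDM library above each saline library and a log2 fold change of 0.16 (SE 0.05). That value was 0.09 with a GC offset and 0.05 when libraries were scaled to the summed pan-neuronal markers, a sum that was itself higher in HDM. Mrgpre overlaps Gm22064 on the opposite strand, and the strand setting of the counting is not given in the sources used here. Mrgprf, 5.28 kb from Mrgprd at chr7:145300828-145309557, had 4.60, 3.54, 4.73 and 4.64 CPM in HDM, against 6.22, 4.59, 4.14 and 5.52 CPM in saline. Its groups overlapped, and its log2 fold change of −0.22 (SE 0.15) was −0.12 without saline replicate 1, −0.13 without HDM replicate 2, −0.14 without batch 1 and −0.35 without batch 3.

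Among the LPA receptors, Lpar1 had 119, 123, 129.8 and 116 CPM in HDM, against 128, 136, 124 and 129.6 CPM in saline. Lpar1 is widely expressed, including in Schwann cells, and lies at chr4:58435255-58553898. Its log2 fold change was −0.09 (SE 0.05), −0.04 with a GC offset and −0.19 under the pan-neuronal scaling. Lpar3, a Gq-coupled receptor at chr3:146220963-146286186, had 37.0, 43.8, 43.6 and 38.4 CPM in HDM, against 41.5, 46.1, 46.2 and 46.7 CPM in saline. HDM was lower in 4 of 4 batches, but HDM replicates 2 and 3 were above saline replicate 1. The log2 fold change was −0.15 (SE 0.06), and −0.25 with an edgeR adjusted p of 0.0471 under the pan-neuronal scaling, under which 8.25% of all genes passed.

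Lpar5, which also couples to Gq and is the receptor with the Runx letters upstream of both starts, lies at chr6:125067920-125082472. It had 3.31, 4.61, 4.65 and 3.93 CPM in HDM, against 5.30, 5.39, 5.88 and 5.58 CPM in saline. The groups did not overlap. Its log2 fold change was −0.42 (SE 0.13, edgeR adjusted p = 0.107), and DESeq2 gave an adjusted p of 0.0467. Lpar5 rests on 1078 counts over the 8 libraries and Mrgpra3 on 998, whereas Lpar1 rests on 27757 and Mrgprd on 24851.

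**Figure D3:**
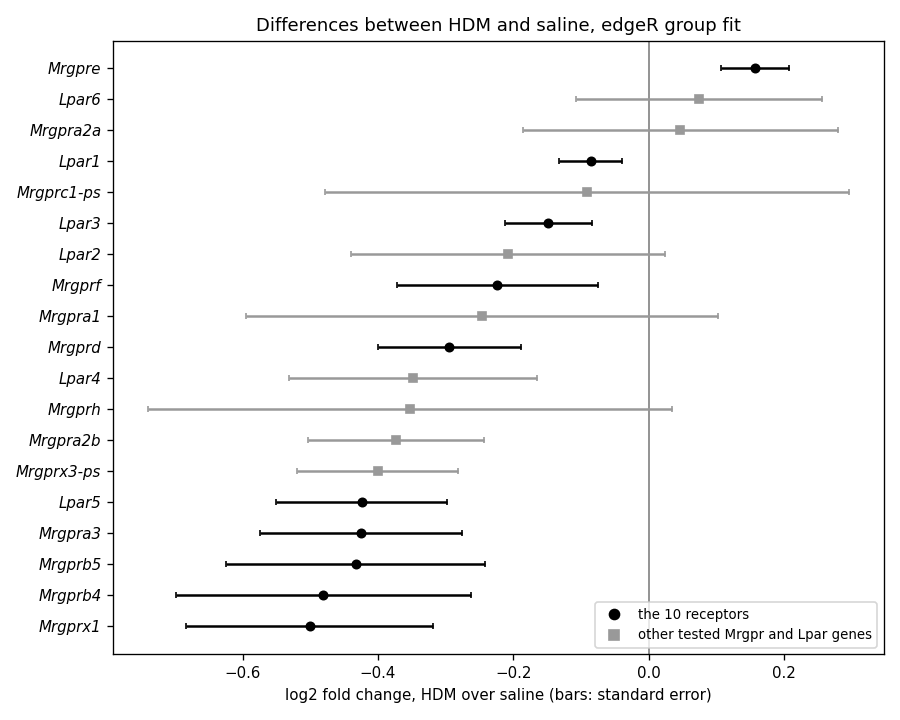
Log2 fold change, HDM over saline, of the tested Mrgpr and Lpar genes from the edgeR group fit; bars are standard errors, black circles are the 10 receptors and grey squares the other genes of both families. Of the 10, all but Mrgpre (0.16) are below 0, and Mrgprx1 is lowest at −0.50.

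The wider Mrgpr family was present in part. Of 33 genes whose symbol begins with Mrgpr, 7 had 0 counts in all 8 libraries, which allows up to 0.125 CPM in the shallowest, and 13 were tested. The other 13 had 1 to 60 counts over all libraries: Mrgprb12-ps, Mrgpra9, Mrgprc2-ps, Mrgprb13, Mrgprb1, Mrgprx2, Mrgpra14, Mrgpra4, Mrgprb2, Mrgprb8, Mrgprg, Mrgprb11-ps and Mrgpra6. A cluster on chromosome 7 (chr7:47185707-48685614) holds 28 of the 33, including 13 pseudogenes. Of these 28, 9 were tested and 8 of the 9 had a log2 fold change below 0, against 51.5% of all genes. The 9 include Mrgpra3, Mrgprx1, Mrgprb4 and Mrgprb5, which were selected on this contrast, so nothing is read from that count. The 28 summed to 31.8, 39.6, 45.6 and 32.3 CPM in HDM, against 44.3, 53.3, 53.0 and 48.7 CPM in saline. The HDM mean of 37.3 ± 6.58 CPM was below the saline mean of 49.8 ± 4.25 CPM (SD, n = 4 each), and HDM replicate 3 overlapped with saline replicate 1. The sum holds the same selected receptors and is given as a description.

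The gene of the cluster with the most counts was Mrgprx3-ps, annotated as an unprocessed pseudogene at chr7:47309378-47310295. It had 9.96, 12.5, 15.3 and 13.1 CPM in HDM, against 14.0, 18.1, 18.0 and 17.0 CPM in saline. Per length it averaged 16.1 CPM per kb over the 8 libraries, against 6.61 CPM per kb for Mrgprx1. HDM was lower in 4 of 4 batches. Its log2 fold change was −0.40 (SE 0.12, edgeR adjusted p = 0.105), with 0.0253 in the blocked fit and 0.0871 with the block and GC offset. Mrgpra2b, at −0.37 (SE 0.13, edgeR adjusted p = 0.157), and Mrgpra2a, at 0.05 (SE 0.23, edgeR adjusted p = 0.940), share 81.2% and 87.5% of their 50-base stretches with other genes, so their counts are uncertain. Mrgprc1-ps, Mrgprh and Mrgpra1 averaged under 1 CPM in either group. The HDM libraries had 0 counts of Mrgprb2, the mast cell receptor of this family, and the saline libraries had 5.

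Composition within the family was described by the share of all Mrgpr counts that each gene took. Mrgprd took 49.6, 54.8, 56.2 and 53.7% of them in HDM, against 54.0, 56.6, 58.4 and 56.4% in saline. Mrgpre took 27.5, 22.6, 19.9 and 25.4% in HDM, against 19.3, 17.8, 16.8 and 18.7% in saline. All 4 HDM shares of Mrgpre were above all 4 saline shares, and the Mrgprd shares overlapped. Shares within a library are parts of the same total, so a fall in some raises others. The receptors were also selected on this contrast, so nothing is read from the shares. Every share rests on 3845 to 7201 counts a library. The 95% Wilson interval of the Mrgpre share in HDM replicate 4 was 24.2 to 26.7%, which covers counting error only.

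Within each group the receptors varied together to different degrees. Deviations of log2 CPM from the group mean were compared over the 8 libraries, which share preparation and depth with each other, and r values are given as a description. Mrgprd and Lpar3 had r = 0.92 (0.74 without the 2 libraries farthest from the median), Mrgprd and Lpar5 0.87 (0.79), Lpar3 and Lpar5 0.87 (0.83), and Mrgpra3 and Mrgprx1 0.87 (0.83). Mrgprx1 also went with Lpar1, at 0.91 (0.80). Mrgpre had r between −0.43 and 0.16 against the other 9 receptors, and between −0.85 (Mrgprd) and 0.62 (Mrgprf) without the 2 farthest libraries. Mrgprf had r between −0.57 and 0.02 against the other 9, and between −0.73 (Mrgprb4) and 0.62 (Mrgpre) without them, so these values rest on few libraries.

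**Figure D4:**
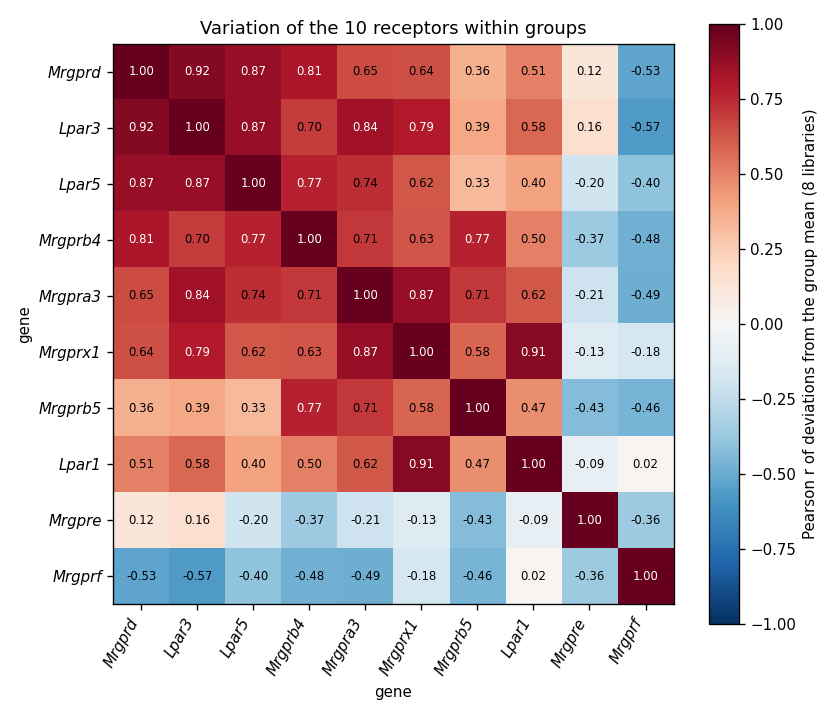
Pearson r between receptors over 8 libraries, after each group's mean was taken off; rows and columns are the 10 genes and colour runs from −1 (blue) to 1 (red). Mrgprd, Lpar3 and Lpar5 form a block of 0.87 to 0.92, which is 0.74 to 0.83 without the 2 farthest libraries. Values of Mrgpre lie between −0.43 and 0.16 here, and between −0.85 and 0.62 without those libraries.

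The same deviations were set beside markers of the jugular and nodose neurons. The jugular list without Mrgprd (5 genes, all tested) summed to 249, 288, 303 and 257 CPM in HDM, against 264, 292, 296 and 296 CPM in saline. The nodose list (7 genes, all tested) summed to 575, 489, 432 and 602 CPM in HDM, against 453, 456, 440.3 and 495 CPM in saline. HDM replicates 1 and 4 were thus lowest in jugular and highest in nodose markers, and they were also the HDM libraries with the least Mrgprd, Lpar3, Mrgpra3, Mrgprx1 and Lpar5. Genes within each list differed in direction. Of the 6 jugular markers with Mrgprd counted, Tlx3 alone had a log2 fold change above 0 (0.31), with all HDM above all saline libraries, and 5 were below. Of the 7 nodose markers, 5 were above 0 and 2 below. The sums therefore do not stand for each gene of their lists. Within groups, jugular markers had r = 0.95 with Mrgprd (0.90 without the 2 farthest libraries) and 0.97 with Lpar3 (0.94), and 0.82 with Mrgpra3 (0.90). Nodose markers had r = −0.67 with Mrgprd (−0.60) and −0.91 with Mrgprb4 (−0.89). Mrgpre had 0.06 with jugular and 0.56 with nodose markers (−0.69 and 0.36 without the 2 farthest libraries), and Mrgprf −0.46 and 0.23 (−0.10 and 0.58). Each of the other 8 receptors had 0.44 to 0.97 with jugular markers (0.72 to 0.94). The part of the jugular and nodose share of the pools in the HDM and saline values was not tested.

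**Figure D5:**
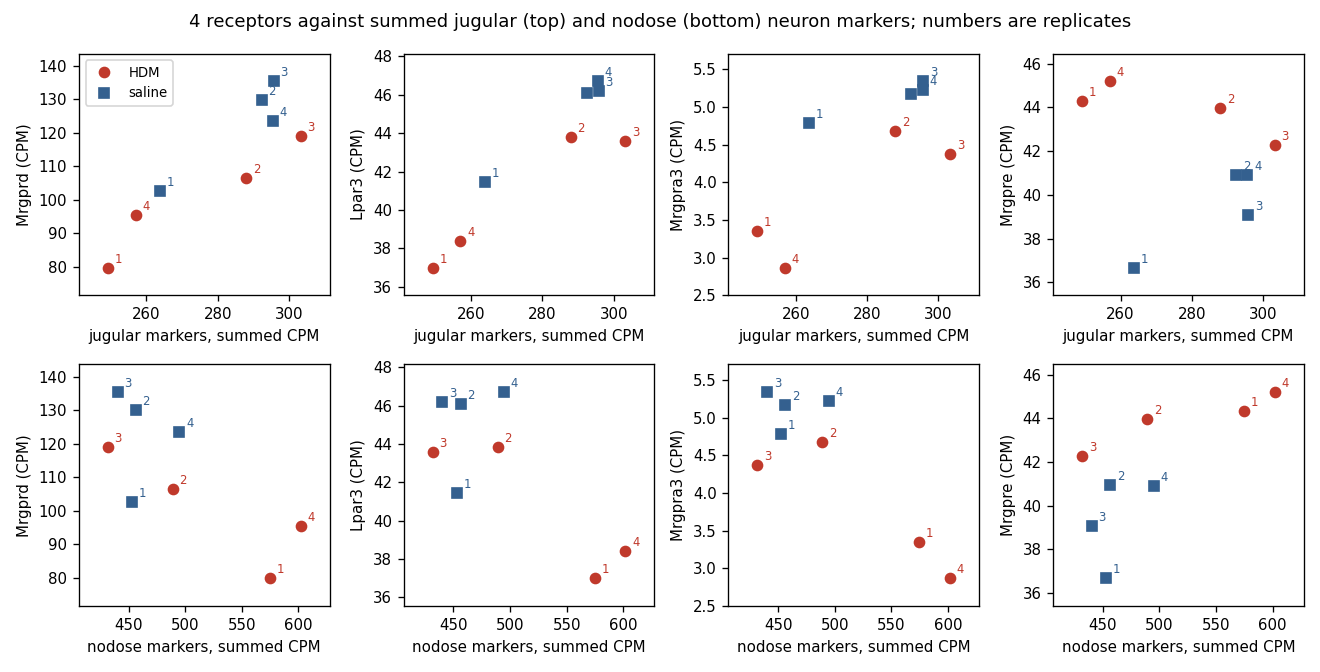
Mrgprd, Lpar3, Mrgpra3 and Mrgpre (CPM, vertical axis) against the summed CPM of jugular markers without Mrgprd (top) and of nodose markers (bottom); red circles are HDM and blue squares saline libraries, with replicate numbers. HDM replicates 1 and 4 have the least jugular and the most nodose marker RNA, and Mrgprd and Lpar3 are lowest there among the HDM libraries.

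Receptor levels were also expressed as a percentage of the jugular sum. Lpar3 was 14.8, 15.2, 14.4 and 14.9% of that sum in HDM, against 15.7, 15.8, 15.6 and 15.8% in saline, with no overlap. Lpar5 was 1.33, 1.60, 1.53 and 1.53% in HDM, against 2.01, 1.84, 1.99 and 1.89% in saline, also with no overlap. Mrgprd was 32.0, 36.9, 39.3 and 37.1% in HDM, against 38.9, 44.4, 45.8 and 41.8% in saline, lower in 4 of 4 batches with overlap. Mrgpra3 averaged 1.38 ± 0.21% in HDM and 1.79 ± 0.02% in saline (SD, n = 4 each), with no overlap. The remaining receptors overlapped between groups. Their HDM and saline means were 44.6 and 45.2% for Lpar1, 2.32 and 3.19% for Mrgprx1, and 1.47 and 1.99% for Mrgprb4. They were 1.09 and 1.42% for Mrgprb5, 1.61 and 1.80% for Mrgprf, and 16.1 and 13.7% for Mrgpre, which was higher in HDM. The receptors were listed for this contrast, so nothing is read from these percentages.

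Other cell types were checked by their whole lists. Sympathetic markers (4 of 4 tested) summed to 184 to 480 CPM in HDM and to 106 to 238 CPM in saline, with the highest value in HDM replicate 4. Fibroblast markers (6 of 6) summed to 692 to 753 CPM in HDM and to 751 to 1044 CPM in saline, and myelinating Schwann cell markers (8 of 8) to 2645 to 2908 CPM in HDM and 2762 to 3369 CPM in saline. Sums of satellite glia, nonmyelinating Schwann cell, smooth muscle and pericyte, endothelial, macrophage and mast cell markers also overlapped between groups. Overlapping sums do not show that the genes were alike. Of all genes, 51.5% had a log2 fold change below 0 and 1.38% passed in edgeR's group fit. Myelinating Schwann cell markers were below 0 in 8 of 8 (2 passed), fibroblast and satellite glia markers in 5 of 6 each (1 passed on each list). Sympathetic markers were above 0 in 4 of 4 (0 passed) and nonmyelinating Schwann cell markers in 3 of 4 (2 passed). None passed on the remaining lists of this paragraph. Within groups, myelinating Schwann cell markers had r = 0.83 with Mrgprf (0.59 without the 2 farthest libraries) and −0.22 with Mrgprd (0.59), and endothelial markers 0.81 with Mrgprf (0.59). Nonmyelinating Schwann cell markers had r = 0.88 with Mrgpre (0.75) and sympathetic markers 0.66 (0.59). Macrophage markers had r = 0.66 with Mrgprf (0.86), smooth muscle and pericyte markers 0.67 with Lpar1 (0.76), and satellite glia markers 0.68 with Mrgprb5 (−0.78). These r values are a selection from all receptor and list pairs. Summed mast cell markers (4 of 6 tested) had r = 0.82 with Mrgprd (0.62) and 0.86 with Lpar3 (0.77). The median log2 fold change of the 4 was −0.73, whereas the sum averaged 83.7 CPM in HDM and 91.3 CPM in saline. The sum therefore does not stand for each gene of that list, and its r values are not read as mast cell content. The part of these cell types in the results was not tested.

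The genes most like Mrgprd within groups, among 13968 with a mean of at least 50 counts, were Tpst1 (r = 0.99), Atp8b2 (0.97), Tmem200a (0.97), Ptgdr (0.97), Cntn4 (0.97) and Gm42047 (0.97), over 8 libraries. Mrgprx3-ps ranked 23, Lpar3 57, Lpar5 132 and Mrgprb4 288, and the remaining receptors ranked from 1076 (Mrgpra3) to 12117 (Mrgprf). For Mrgpra3 the 6 most like were Adk (0.98), Zeb1 (0.98), Syt6 (0.97), Bag2 (0.97), Polr3g (0.97) and Arhgap20 (0.96). Mrgprx1 was at rank 103 and Lpar3 at 164, and the other receptors were at 459 (Lpar5) to 12054 (Mrgprf). Tpst1 itself had a log2 fold change of 0.01 between the groups, with 0.965 as its adjusted p in edgeR.

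Of 15 tested genes of NP1-type neurons, 5 had an unadjusted p under 0.05 in edgeR (18.1% of all genes), and after adjustment 0 rose and 1 fell (1.23% and 0.159% of all genes). The gene that fell was Cd55, a complement regulator on the cell surface, at 293, 318, 341 and 292 CPM in HDM and 344, 377, 394 and 379 CPM in saline. Its log2 fold change was −0.26 (SE 0.06, edgeR adjusted p = 0.0445), and it passed in 2 of 12 fits that left out libraries. With a GC offset the value for Cd55 was −0.19 (edgeR adjusted p = 0.203). The list's median was −0.15, with 12 of 15 below 0, against 51.5% of all genes and their median of −0.01. DESeq2 called 4 of the 15 and 6.94% of genes. In edgeR's blocked fit 0 rose and 5 fell (3.01% and 1.03% of all genes), namely Plxnc1, Acpp, Nt5e, Cd55 and Tmem45b, and with the block and GC offset 1 fell, Nt5e, which encodes an enzyme that makes adenosine outside the cell. Nt5e had 34.4, 37.0, 43.8 and 34.7 CPM in HDM, against 45.9, 44.8, 52.2 and 44.8 CPM in saline. Acpp, a phosphatase with the same product, had a log2 fold change of −0.30 and Tmem45b one of −0.37. P2rx3, an ATP-gated channel on this list, stood at 0.01, Scn10a at 0.00 and Gfra2 at −0.03.

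Genes of the other nonpeptidergic classes gave no calls in edgeR without the block or in limma-voom. Over all genes, 18.1% had p under 0.05 in edgeR before adjustment and 1.38% passed after it, with 4.05% in the blocked fit. Limma-voom called 1.21% and DESeq2 6.94%. Of 6 NP2-type genes 0 passed in edgeR (2 with p under 0.05 before adjustment; 0 in limma-voom, 1 in DESeq2), with F2rl2, a protease-activated receptor, at −0.16 (edgeR adjusted p = 0.0851, and 0.0433 in the blocked fit). Calca was at −0.15 and Gfra1 at −0.07. Of 9 NP3-type genes 0 passed in edgeR in either fit (3 with p under 0.05 before adjustment; 0 in limma-voom, 2 in DESeq2), with Osmr, a receptor subunit for oncostatin M and interleukin-31, at −0.19 (adjusted p = 0.0749), Nts at −0.38, Htr2a at −0.40 and Jak1 at 0.08. Of 7 lineage transcription factors 0 passed in edgeR (1 with p under 0.05 before adjustment; 0 in limma-voom, 1 in DESeq2), with Tlx3 at 0.31 (edgeR adjusted p = 0.0526, and 0.0211 in the blocked fit) and 0.15 with a GC offset. Runx1 was at −0.10, Prdm12 at −0.08 and Drgx at −0.16.

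Downstream of the receptors, 1 of 16 genes of Gq signalling and its channels rose and 0 fell in edgeR, against 1.23% and 0.159% of all genes. An unadjusted p under 0.05 was reached by 4 of the 16, against 18.1% of all genes. Limma-voom and DESeq2 called 1 each, against 1.21% and 6.94% of genes. Plcb3, the phospholipase C that several Mrgpr pathways use, had 697, 713, 645 and 718 CPM in HDM, against 582, 622, 581 and 605 CPM in saline. Its log2 fold change was 0.21 (SE 0.05, edgeR adjusted p = 0.0439), which passed in 1 of 12 fits that left out libraries and was 0.12 with a GC offset (edgeR adjusted p = 0.306). The channels Trpa1 and Trpv1 had log2 fold changes of −0.06 and 0.05, and Gna11 and Gna14, both Gq-class subunits, of 0.16 and −0.17. Itpr2, a calcium release channel, was at −0.50 (SE 0.18), and between −0.64 and −0.28 in fits that left out libraries, with −0.28 without batch 1.

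Of 8 tested genes that make or break down LPA, 0 passed in edgeR in either fit, and 0 in limma-voom and in DESeq2. Before adjustment 3 had p under 0.05 in edgeR, against 18.1% of all genes. Enpp2, which encodes autotaxin, was at −0.21 with an edgeR adjusted p of 0.162 and 37.5 ± 2.20 CPM in HDM and 43.3 ± 4.95 CPM in saline (SD, n = 4 each). Pla2g4a was at −0.73 with 1.53 ± 0.44 CPM in HDM and 2.55 ± 1.18 CPM in saline, and between −0.95 and −0.34 in fits that left out libraries, with −0.34 without batch 1 and −0.95 without batch 3. Pla2g6 was at 0.10 and Plpp2 at 0.11. Of the remaining LPA receptors, Lpar2 (−0.21), Lpar4 (−0.35) and Lpar6 (0.07) were tested and 0 passed in edgeR, limma-voom or DESeq2 (0 with p under 0.05 before adjustment), and each averaged under 3 CPM in either group. Lpar6 overlaps Rb1 on the opposite strand. Penk, the precursor of peptides that act on Mrgprx1, was at −0.13 (edgeR adjusted p = 0.637), and at 0.03 in the highest of the fits that left out libraries.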

How the data were processed

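RNA of 8 pools of vagal ganglia was sequenced, 4 HDM and 4 saline, after purification with a column kit and the stranded mRNA kit of Illumina with paired 50 bp reads, per the labels' protocols. The deposited values are counts per gene, whole numbers that were not normalised. The authors made them with featureCounts on GRCm38 (mm10), per the submitters' processing notes. Neither aligner nor strand setting is given in the sources used here. Symbols, exon lengths, GC and overlaps came from GENCODE release M21 (55154 of 55335 IDs had a symbol), and upstream sequences from RefSeq on GRCm38.p6.

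The 10 receptors and all gene lists were chosen with earlier results of these data known. Genes were filtered with filterByExpr (17618 kept), scaled by TMM and tested with edgeR 4.0.16 (R 4.3.3; quasi-likelihood, 2-sided, group only, Benjamini-Hochberg over all genes kept, adjusted p under 0.05). SEs are the log2 fold change over the root of F. A count of 0 allows up to 3 counts, which covers counting error only. Named genes are the 10 receptors, the family members with counts, up to 4 genes of smallest p per list, and the 6 genes most like Mrgprd and Mrgpra3; further list members were named after their values were seen, to give their roles. A few listed genes, and 1 list, are not reported here. On simulated counts for 17618 genes, the group fit recovered 78% of 200 changed genes with 17 false calls. The 78% is taken over all 200 genes together, which mixed several sizes of difference. Recovery at each size is not given here, so the 78% does not stand for differences of the receptors' size.

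Alternatives were DESeq2 1.42.0 and its size factors, limma 3.58.1 (voom), pan-neuronal size factors, other filters, a GC offset, the replicate number as a block, and leaving out libraries. The batch labels pair the libraries, and the block rests on them: deviations of same-numbered libraries correlated by −0.07 to 0.12 over genes, and 1 of 8 libraries was closest to its own number.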

Additional observations from a re-analysis of the deposited data

Results flagged for a closer look

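Of 38 gene and group combinations checked for a sample far from the others (19 genes in 2 groups of 4), 2 were picked out, and chance alone picks out about 1 in 20 groups. Mrgprf in HDM replicate 2 had 3.54 CPM, against 4.60 to 4.73 CPM in the other HDM libraries, a gap of 0.894 of the group's range. Lpar3 in saline replicate 1 had 41.5 CPM, against 46.1 to 46.7 CPM in the other saline libraries, a gap of 0.884 of the range. Saline replicate 1 also had the lowest Mrgprd (103 CPM) and jugular marker sum (264 CPM) of the saline group.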

How the results depend on the processing

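All 210 log2 fold changes of the 10 receptors, from 21 alternatives, kept their direction, and 202 stayed on the same side of the threshold. The other 8 passed only under the alternative. The alternatives refit the same counts or most of them, for receptors selected on this contrast. A kept direction was therefore largely fixed in advance and is given as a description. The group fit called 244 genes, 0 of the 10 receptors and 2 pathway genes. In that order, the replicate block gave 713, 1 and 10, and block and GC offset together 40, 1 and 1. The GC offset alone gave 0 genes and 0 pathway genes. Pan-neuronal size factors gave 1453, 3 and 13, no filter 722, 2 and 10, and DESeq2 843, 1 and 11; DESeq2's size factors gave 1 pathway gene. The block changed the call of 1 receptor, Mrgprd, and no other receptor's; pan-neuronal scaling called Mrgprd, Lpar3 and Lpar5, and no filter called Mrgprd and Mrgprx1. Pan-neuronal scaling moved the median log2 fold change of all genes by −0.10. Leaving out libraries gave 0 to 376 genes, 0 receptors throughout and 0 to 6 pathway genes. No gene was called without HDM replicate 1, HDM replicate 2, saline replicate 3 or batch 2, and 376 were called without HDM replicate 3; the cause was not tested. Mrgprd ranged from −0.39 to −0.20 and Lpar5 from −0.50 to −0.34 in these fits. For 2 of the 202, Mrgpra3 and Mrgprb5, DESeq2 gave no adjusted p. The median biological coefficient of variation between replicates was 12.4% for the 10 receptors and 8.21% for all genes, which limits what 4 libraries a group can show.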
